A study of Arabidopsis thaliana with 12 samples.

Results

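Transcripts of 2 libraries from seedlings titled as the cmt2 cmt3 double mutant (cc) were compared with those of 2 libraries from the wild type Col-0, out of 12 RNA-seq libraries in the series. Members were taken by title alone, and the comparison ran over the 68760 nuclear features of the 69056 in the tables. These were 33671 genes other than transposable element (TE) genes, 27444 of them protein-coding, together with 3901 TE genes and 31188 TEs. All libraries came from whole Arabidopsis thaliana seedlings, 10 days old, grown at 22 °C in long days on plates with sucrose and no further treatment. The cc plants carried T-DNA insertion alleles of both genes, cmt2-7 and cmt3-11, in the Col-0 background. The other 8 libraries came, by their labels, from cc plants with a FLAG-tagged genomic CMT2 transgene, either CMT2 (CMT2/cc lines 1 and 19) or CMT2 with the substitution V1200R (V1200R/cc lines 9 and 15). They entered the fit to estimate the spread between libraries and counted in the filter on low values. Otherwise they were used only where their values are named. Nothing in the sources used here says whether the 2 libraries of a group came from separate cultures, so the p-values measure the spread between these libraries, which may be technical. Whole seedlings mix many cell types, so more RNA per cell and more cells of a type cannot be told apart.

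As background, DNA methylation in plants occurs at CG, CHG and CHH sites, where H is any base but G. CHROMOMETHYLASE 2 (CMT2) and CHROMOMETHYLASE 3 (CMT3) are plant DNA methyltransferases that bind histone H3 dimethylated at lysine 9 and methylate cytosines outside CG sites. CMT3 acts mainly at CHG sites, and CMT2 mainly at CHH sites of long TEs in pericentromeric heterochromatin. The histone methyltransferases that make this mark bind methylated DNA in turn, so both marks hold each other in place and keep TEs silent.

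Levels are in TPM, each transcript's share of the library after correction for length, scaled to a sum of 1000000. The labels were first checked on the transcripts of the mutated genes. CMT2 (AT4G19020, chr4:10414428-10421265 in TAIR10.1 coordinates) was at 15 and 13.3 TPM in the Col-0 libraries and at 1.70 and 1.99 TPM in the libraries labelled cc. It fell by 2.64 on the log2(TPM + 0.5) scale (SE 0.09, limma with Benjamini-Hochberg adjustment, adjusted p = 3.5e-07). CMT3 (AT1G69770, chr1:26248118-26253687) was at 12.9 and 11.5 TPM in the Col-0 libraries and at 16.4 and 14.0 TPM in the libraries labelled cc, a log2 difference of 0.31 (SE 0.13, limma adjusted p = 0.24). The 8 libraries of the transgenic lines, labelled as the same double mutant, had 4.72 to 7.02 TPM of CMT3, below both the Col-0 libraries and those labelled cc. The cmt3-11 label was therefore not visible in the CMT3 level of the libraries labelled cc, and these stood apart from the lines that should share the allele. The TPM of a whole gene does not show whether an insertion interrupts it, and whether the plants differ in genotype was not tested. The libraries are called by their labels throughout.

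Sequences of 6 TEs that carry the comparison are shown, because they differed between the groups and each is short enough to read whole. The first 5 were close to absent in Col-0 and higher in the libraries labelled cc, overlap no other listed feature and passed the thresholds given below. The last, AT4TE10265, was lower, and all of its 135 bases match the gene AT4G13575, also lower, at 97.78% identity, so its reads cannot be assigned to it with certainty. Capitals mark CAG and CTG, which are reverse complements, so each match is a CHG site with a cytosine on both strands. The sequences are from the TAIR10.1 assembly, 5′ to 3′ on the listed strand.
AT3TE45390 (chr3:10922914-10923082, minus strand): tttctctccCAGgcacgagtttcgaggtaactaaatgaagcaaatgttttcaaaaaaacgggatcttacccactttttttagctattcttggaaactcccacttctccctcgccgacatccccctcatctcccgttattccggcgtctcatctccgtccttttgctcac
AT2TE11570 (chr2:2578687-2578925, minus strand): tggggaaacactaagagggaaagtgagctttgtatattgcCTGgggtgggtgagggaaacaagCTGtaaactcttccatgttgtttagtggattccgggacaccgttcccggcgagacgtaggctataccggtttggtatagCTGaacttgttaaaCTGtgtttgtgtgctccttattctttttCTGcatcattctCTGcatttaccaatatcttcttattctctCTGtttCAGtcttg
AT2TE41175 (chr2:9654888-9655175, plus strand): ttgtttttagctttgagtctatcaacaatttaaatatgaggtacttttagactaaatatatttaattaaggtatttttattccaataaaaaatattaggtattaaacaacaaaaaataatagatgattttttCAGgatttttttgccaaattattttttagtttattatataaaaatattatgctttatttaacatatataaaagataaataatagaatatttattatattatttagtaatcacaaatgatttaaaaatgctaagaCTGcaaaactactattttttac
AT1TE77165 (chr1:23435101-23435292, minus strand): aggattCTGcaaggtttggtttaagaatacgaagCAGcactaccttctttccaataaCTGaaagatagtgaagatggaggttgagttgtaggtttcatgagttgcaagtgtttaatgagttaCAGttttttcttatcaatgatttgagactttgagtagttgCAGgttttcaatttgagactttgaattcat
AT5TE25310 (chr5:6982965-6983117, plus strand): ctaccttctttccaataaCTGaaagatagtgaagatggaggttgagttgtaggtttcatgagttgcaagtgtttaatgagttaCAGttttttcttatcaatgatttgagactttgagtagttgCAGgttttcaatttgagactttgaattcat
AT4TE10265 (chr4:2179265-2179399, minus strand): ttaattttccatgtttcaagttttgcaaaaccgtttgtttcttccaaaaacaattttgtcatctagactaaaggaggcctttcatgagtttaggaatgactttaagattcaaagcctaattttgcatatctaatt

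The element AT3TE45390 had 1 CAG or CTG in 169 bases and a GC content of 46.7%, whereas AT2TE11570 had 8 in 239 bases. The AT-rich AT2TE41175 had a GC content of 17%, no CG and 2 of these CHG sites. AT1TE77165 and AT5TE25310, on different chromosomes, were 100% identical over 153 bases, so reads cannot be assigned to one of them with certainty. AT4TE10265 had neither CAG nor CTG in 135 bases. Among tested TEs of 100 to 300 bases, 203 of 233 (87.1%) held at least 1 CAG or CTG, and among all listed TEs of that length 6361 of 7814 (81.4%) did, so a match does not set these elements apart.

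Most features that differed were higher in the libraries labelled cc. A feature was called at a limma adjusted p under 0.05 with a log2 difference of at least 1 in size, among features at 0.5 TPM or more in at least 2 of the 12 libraries. Of 23575 nuclear features tested, 430 (1.82%) were called higher and 46 (0.195%) lower. Thus 90.3% of the 476 called features were higher, while the median log2 difference of all tested features was 0.03. Without the fold minimum, 1048 of the 23575 had an adjusted p under 0.05, and 17.95% of features had an unadjusted p under 0.05. By kind, 171 of 22512 genes (0.76%) were higher and 35 (0.155%) lower. After quantile normalization of the log2 values these were 138 and 54. Among TE genes, 101 of 198 (51%) were higher and 2 (1.01%) lower, and among TEs 158 of 865 (18.3%) were higher and 9 (1.04%) lower. With 1 library left out, genes lower numbered 22 without Col-0 replicate 1 and 55 without cc replicate 2, and TEs lower 4 and 5 without Col-0 replicate 1 and 2 and 5 without cc replicate 1. No organelle gene was called. The plot of mean levels shows this imbalance for each kind of feature.

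**Figure D1:**
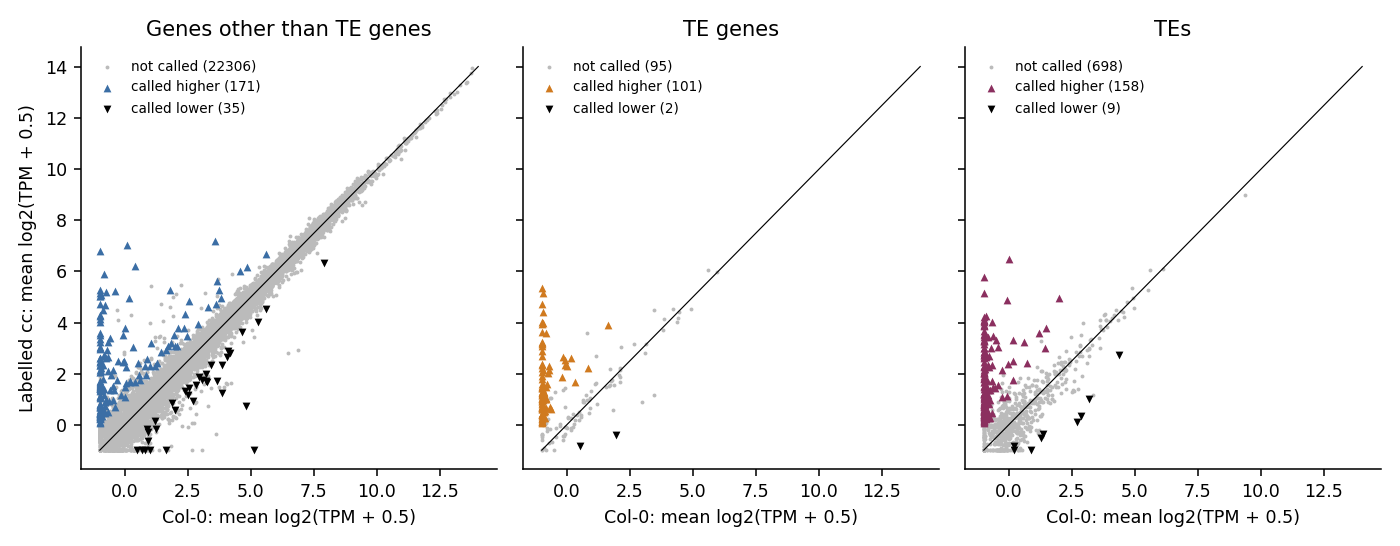
Mean level in the 2 libraries labelled cc (vertical axis) against the mean in the 2 Col-0 libraries (horizontal axis), both as log2(TPM + 0.5), for genes, TE genes and TEs. Each point is 1 tested feature and triangles mark called features, with 171, 101 and 158 higher and 35, 2 and 9 lower in the libraries labelled cc; most called TE genes and TEs stand at the left edge, where Col-0 was at or near 0.

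The filter on low values shaped these shares. Of the tested TEs, 94 reached 0.5 TPM in no library except those labelled cc, and 88 of them were called; for TE genes these were 64 and 60, and for genes 79 and 66. Such features had to differ to be tested, so 18.3% and 51% describe the tested features and not all TEs and TE genes. Among features at 0.5 TPM or more in both Col-0 libraries, 6 of 293 TEs were higher and 8 lower, 3 of 57 TE genes were higher and 2 lower, and 38 of 20501 genes were higher and 35 lower. The excess of higher calls was therefore among features that were nearly or wholly without reads in Col-0. On the log2(TPM + 0.5) scale, features under 0.5 TPM in both Col-0 libraries cannot fall by 1. They could only be called higher, so the direction of their calls was set by the scale. Of the features called higher, 87 TEs, 46 TE genes and 80 genes were listed at 0 in both Col-0 libraries. Their levels in the libraries labelled cc were mostly low: the median mean level of the higher TEs was 2.40 TPM, of the higher TE genes 1.86 TPM and of the higher genes 3.70 TPM. A mean of 10 TPM or more was reached by 24 TEs, 10 TE genes and 41 genes.

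TE transcripts were higher in sum as well. All TE genes together had 420 and 410 TPM in the Col-0 libraries and 884 and 975 TPM in the libraries labelled cc. By the group means this was 2.24 times as much, which was not tested. All listed TEs together had 2848 and 1876 TPM in the Col-0 libraries, which were far apart, and 3050 and 3086 TPM in the libraries labelled cc. The ratio of the group means was 1.299 (two-sided exact permutation p = 0.333, the smallest possible). The 158 TEs called higher held 21.83 and 18.16 TPM in the Col-0 libraries and 899 and 892 TPM in the libraries labelled cc, and the 101 TE genes 9.29 and 8.76 TPM and 396 and 454 TPM, which describes how they were chosen. Because 5492 listed TEs overlap a TE gene, the same reads can be shared between both names, and all 101 higher TE genes and 127 of the 158 higher TEs overlapped another listed feature.

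The TE genes, annotated genes that lie within TEs and encode their proteins gave the highest share of calls, at levels of at most 41.5 TPM in the mean of the libraries labelled cc. AT1G45030, on chromosome 1, was listed at 0 in both Col-0 libraries and was at 30.9 and 52.0 TPM in the libraries labelled cc (limma adjusted p = 5.2e-07). AT4G20365, the Copia47 element with primers in the study, rose from 0.0158 and 0.0237 TPM to 36.4 and 34.8 TPM, a log2 difference of 6.12 (SE 0.76, limma adjusted p = 0.0017). Copia elements are retrotransposons with long terminal repeats, which move through an RNA copy. AT1G45035, close to AT1G45030, was listed at 0 in Col-0 and was at 21.4 and 31.2 TPM in the libraries labelled cc. AT3G44215, of Copia11, rose from 0.0189 and 0.0284 TPM to 19.8 and 21.7 TPM, a log2 difference of 5.34 (limma adjusted p = 2.7e-07). AT3G28915 was listed at 0 in Col-0 and was at 12.6 and 19.6 TPM in the libraries labelled cc, and AT5G43415 at 0 and then at 14.0 and 15.8 TPM. In these TE genes both libraries labelled cc lay far above both Col-0 libraries, and lack of overlap was a condition for naming them.

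Of the other copia features with primers in the study, the TE of Copia11, AT3TE64435, was listed at 0 in Col-0 and was at 33.6 and 37.0 TPM in the libraries labelled cc (limma adjusted p = 6.4e-08). Copia89 was listed at 0 in Col-0 under both of its names. Its TE AT1TE44380 was at 10.2 and 11.4 TPM in the libraries labelled cc, and its TE gene AT1G36185 at 9.56 and 8.43 TPM. The TE gene of Copia18A, AT5G35935, already had reads in Col-0 and rose from 0.502 and 0.407 TPM to 4.81 and 5.84 TPM, a log2 difference of 2.61 (limma adjusted p = 4.3e-06). AT4TE50435, the TE of Copia47, was at 0 in Col-0 and at 0.426 and 0.518 TPM in the libraries labelled cc and was not called (limma adjusted p = 0.59), while the TE gene that overlaps it was called. When the TPM of both names was summed, the libraries labelled cc had 36.8 and 35.3 TPM and the log2 difference was 6.14 (limma adjusted p = 4.2e-08). The TE of Copia18A, AT5TE50260, was under the filter. In all, 6 of the 7 tested features of the 8 in this list were higher, beside 51% of tested TE genes and 18.3% of tested TEs. Copia11 and Copia89 are each counted under both of their names, which overlap and can share reads. The median log2 difference was 4.49 beside 0.03 for all features. The study describes Copia89 and Copia18A as targets of both CMT2 and CMT3, and turned to Copia11 and Copia47 after its RNA sequencing. The direction of these elements is therefore not independent evidence.

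Only 2 TE genes were lower. AT4G16870 fell from 4.61 and 2.47 TPM to 0.264 and 0.231 TPM, by 2.38 on the log2 scale (limma adjusted p = 1.7e-04). AT4G08115 fell from 0.831 and 1.05 TPM to 0.0737 and 0.0321 TPM, by 1.38 (limma adjusted p = 0.0039). In a fit of the 4 Col-0 and cc libraries alone neither was called (adjusted p = 0.0799 and 0.0776), and with a pseudocount of 1 the difference of AT4G08115 was -0.88, under the fold minimum.

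Among TEs of at least 100 bases that overlap no other listed feature, the element AT3TE45390 stood first. It rose from 0.808 and 0.269 TPM to 96.6 and 83.9 TPM, a log2 difference of 6.50 (limma adjusted p = 1.1e-05). AT5TE37180 rose from 0 and 0.0595 TPM to 16.9 and 20.6 TPM, a log2 difference of 5.18 (limma adjusted p = 1.3e-06). This element matched the gene AT5G45570 at 99.81% identity over 530 bases, and that gene was higher too. The other 6 were listed at 0 in both Col-0 libraries. AT2TE11570 was at 19.8 and 13.9 TPM in the libraries labelled cc, and AT2TE41175 was at 13.9 and 10.9 TPM. AT1TE77165 was at 10.1 and 8.88 TPM and its identical copy AT5TE25310 at 7.93 and 10.5 TPM. AT4TE12170 was at 8.27 and 4.61 TPM and AT5TE61730, which matches the called feature AT5G42645 at 97.22%, at 4.41 and 7.46 TPM, so the replicates were less close at these low levels. The limma adjusted p of these 6 TEs ranged from 5.2e-07 to 0.0019.

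Of the 9 TEs that were lower, the largest differences were in AT1TE71790 and AT4TE42860. AT1TE71790 fell from 7.65 and 4.61 TPM to 0.672 and 0.498 TPM, by 2.58 on the log2 scale (limma adjusted p = 0.0015). AT4TE42860 fell from 6.18 and 7.60 TPM to 0.781 and 0.748 TPM, by 2.54 (limma adjusted p = 1.3e-04). AT1TE71785, 52 bases long, fell from 9.04 and 8.18 TPM to 0.542 and 3.35 TPM, by 2.19 (limma adjusted p = 0.038). AT1TE71805 fell from 2.03 and 1.86 TPM to 0.0853 and 0.314 TPM, by 1.82 (limma adjusted p = 0.0086). AT4TE34700 was at 1.61 and 1.12 TPM in the Col-0 libraries and listed at 0 in both libraries labelled cc (limma adjusted p = 0.027). AT4TE10265, shown above without CAG or CTG, went from 24.0 and 16.8 TPM to 5.22 and 7.34 TPM, lower by 1.62 (limma adjusted p = 0.0031), as did the gene AT4G13575 that it matches. All 9 were on chromosomes 1 and 4, with 3 and 6 of them, and 7 of these 9 lay within 4 groups of neighbouring lower features. The calls of AT1TE71785, AT1TE71805 and AT4TE34700 were lost when single libraries were left out. The adjusted p was 0.148 for AT1TE71785 without either Col-0 library and 0.0944 without cc replicate 1. For AT1TE71805 it was 0.0592 and 0.0545 without Col-0 replicate 1 and 2 and 0.0821 without cc replicate 1, and for AT4TE34700 it was 0.0898 to 0.147 without any one of the 4 libraries. In the fit of the 4 libraries alone these 3 and AT1TE71790 (adjusted p = 0.0585) were not called.

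Longer TEs were called higher more often. Of tested TEs under 100 bases, 7 of 199 (3.52%) were higher, of those from 100 to under 500 bases 27 of 334 (8.08%), of those from 500 to under 4000 bases 50 of 213 (23.5%), and of those of 4000 bases or more 74 of 119 (62.2%). The higher TEs had a median length of 3833 bases and the uncalled tested TEs 230 bases. Among tested TEs of 500 bases or more, the higher ones had a median of 6.24 CAG or CTG cytosines per 100 bases, counted on both strands, and the uncalled ones 4.16. For CHG sites of any kind the medians were 7.27 and 5.77 per 100 bases, for CHH sites 29.0 and 27.8, and for CG sites 3.72 and 5.26. GC contents were nearly equal at 40.4% and 39.7%, but the median lengths in this class were 4843 and 1352.5 bases. These are descriptions of elements that passed the filter, of which 94.4% and 91.6% overlap another feature, and the long ones are more likely to contain a TE gene. Whether length or sequence accounts for the calls was not tested.

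Protein-coding genes that rose mostly had a Col-0 mean under 1 TPM. Of 20860 tested, 114 were higher and 27 lower. Among the 114, 56 were listed at 0 in both Col-0 libraries and 20 had a Col-0 mean of 1 TPM or more. AT1G64795, which overlaps AT1G64790, was listed at 0 in Col-0 and was at 99.0 and 121 TPM in the libraries labelled cc (limma adjusted p = 3.9e-10). AT3G01345 rose from 0.784 and 0.391 TPM to 131 and 131 TPM, a log2 difference of 6.94 (SE 0.16, limma adjusted p = 3.0e-08). QQS (AT3G30720), a gene of starch and nitrogen metabolism that is found in Arabidopsis thaliana alone, overlaps the element AT3TE51150. It was listed at 0 in Col-0 and was at 38.9 and 38.0 TPM in the libraries labelled cc (limma adjusted p = 5.0e-08). AT5G03090 was listed at 0 in Col-0 and at 38.2 and 27.8 TPM in the libraries labelled cc, and AT3G25719 at 0 and then at 24.5 and 27.9 TPM. The replicates of these genes lay close together. Both libraries labelled cc stood above Col-0, which was a condition for naming them.

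Several of the genes that rose are near-identical copies of each other, and their reads cannot be assigned with certainty. OFP9 (AT4G04030), AT3G54730 and AT2G19850 are annotated as transcription repressors and were 98.02% to 99.16% identical. OFP9 rose from 0.0293 and 0 TPM to 32.7 and 33.4 TPM, a log2 difference of 6.03 (limma adjusted p = 8.6e-07). AT3G54730 rose from 0.122 and 0.0684 TPM to 36.8 and 36.0 TPM, a log2 difference of 5.96. AT2G19850 rose from 0.067 and 0.0753 TPM to 25.1 and 25.5 TPM, a log2 difference of 5.50. AT5G45570 and AT5G28235, annotated as Ulp1 protease family proteins, a family whose peptidase domain is also found in DNA transposons, were 99.42% identical. The first was listed at 0 in Col-0 and was at 33.5 and 36.2 TPM in the libraries labelled cc. The second rose from 0 and 0.0801 TPM to 20.5 and 23.2 TPM, a log2 difference of 5.37. AT3G60950 and AT3G61030, a C2 and calcium-dependent lipid-binding domain protein, were 99.96% identical. AT3G60950 rose from 0 and 0.636 TPM to 35.6 and 39.3 TPM, and AT3G61030 was listed at 0 and then at 30.3 and 34.0 TPM. In all, 107 of the 468 called features of at least 100 bases were at least 90% identical to another called feature over at least 50% of the shorter one, 33 genes, 30 TE genes and 44 TEs.

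Some of the genes that rose already had clear reads in both Col-0 libraries. AT5G26270 rose from 11.5 and 11.3 TPM to 148 and 142 TPM, a log2 difference of 3.61 (limma adjusted p = 2.8e-06). AT5G35480 rose from 12.5 and 11.8 TPM to 52.0 and 45.4 TPM, a log2 difference of 1.96 (limma adjusted p = 6.2e-05). HISN6B and HPA1, both histidinol-phosphate aminotransferases of histidine synthesis and 99.46% identical, rose together. HISN6B went from 14.69 and 11.03 TPM to 38.8 and 36.6 TPM, and HPA1 from 13.0 and 10.8 TPM to 25.2 and 26.2 TPM. These 4 genes were chosen after their values were seen.

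The genes that were lower had reads in Col-0 and lost part of them. Of 27, 26 had a Col-0 mean of 1 TPM or more and 24 fell by 1 to 2 on the log2 scale. Besides CMT2, the clearest was LCR68 (AT2G02130), a small cysteine-rich protein of the plant defensin type, which fell from 233 and 243 TPM to 81.9 and 77.7 TPM, by 1.57 (SE 0.06, limma adjusted p = 8.0e-07). EDF3 (AT3G25730), a transcription factor with AP2 and B3 domains known from ethylene responses, fell from 6.12 and 5.95 TPM to 1.08 and 1.80 TPM, by 1.78 (limma adjusted p = 2.2e-04). MYR1 (AT5G18240), a MYB-related transcription factor, fell from 9.24 and 8.59 TPM to 2.27 and 3.35 TPM, by 1.53 (limma adjusted p = 0.0010). In the fit of the 4 libraries alone the log2 differences of EDF3 and MYR1 were the same but neither was called (adjusted p = 0.0762 and 0.0815). AT1G48670, annotated in the GH3 family of enzymes that join auxin or jasmonate to amino acids, was at 1.36 and 1.12 TPM in the Col-0 libraries and listed at 0 in the libraries labelled cc (limma adjusted p = 0.0023). AT1G45165 was at 2.18 and 3.14 TPM in the Col-0 libraries and listed at 0 in the libraries labelled cc, while AT1G45163, which overlaps it, rose from 1.47 and 2.12 TPM to 4.11 and 4.74 TPM.

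Of the 8 largest decreases, 2 depended on single libraries. AT5G42825 was at 26.4 and 28.0 TPM in the Col-0 libraries and at 5.04 and 0 TPM in the libraries labelled cc, lower by 4.06 on the log2 scale (SE 0.82, limma adjusted p = 0.025). Its adjusted p was 0.103 and 0.128 without Col-0 replicate 1 and 2. OCT1 (AT1G73220), an organic cation transporter, was at 9.25 and 15.6 TPM in the Col-0 libraries and at 1.68 and 4.43 TPM in the libraries labelled cc, lower by 1.94 (limma adjusted p = 0.040). Its adjusted p was 0.0719 and 0.216 without Col-0 replicate 1 and 2, and 0.252 without cc replicate 1.

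Listed TEs were common near called genes in both directions. A listed TE lay within the gene or at most 1 kb upstream of it for 5823 of all 20860 tested protein-coding genes (27.9%), for 63 of the 114 higher genes (55.3%) and for 16 of the 27 lower genes (59.3%). A TE that was itself called higher lay within the gene or within 2 kb for 101 of all tested genes (0.484%), for 17 of the higher genes (14.9%) and for 6 of the lower genes (22.2%). Of the higher genes 29.8% lay in the TE-rich pericentromeric regions described below, beside 6% of those tested, and 3 of the 27 lower genes did. These shares were not compared within regions, so nearness to TEs and position cannot be told apart. Strand was not stated for the counting, so reads that run from a TE into a gene, and overlapping genes on opposite strands, cannot be told apart. SQN (AT2G15790), a cyclophilin 40 protein that acts with ARGONAUTE 1 in microRNA function, is an example. It rose from 14.3 and 12.7 TPM to 32.6 and 28.7 TPM, a log2 difference of 1.16 (limma adjusted p = 5.3e-05). It lay beside AT2G15800, AT2TE28020 and AT2G15810, which were higher as well.

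Of noncoding kinds with several calls, each had more higher than lower features, but antisense long noncoding RNA genes were nearly balanced. Among long noncoding RNA genes 17 of 238 tested were higher (7.1%) and 3 lower, and among antisense ones 5 (0.88%) and 3 of 570. Among other RNA genes these were 6 (5%) and 0 of 120, and among pseudogenes 12 (5.8%) and 1 of 206. Among transcribed regions listed as a kind of their own they were 16 (8.1%) and 1 of 198. Of all tested features 1.82% were higher and 0.195% lower, and of genes 0.76% and 0.155%. No pre-tRNA, small nuclear RNA or further antisense RNA gene was called, of 64, 30 and 29 tested. AT2G15555 rose from 0 and 0.118 TPM to 60.2 and 58.7 TPM, a log2 difference of 6.75 (limma adjusted p = 1.1e-07). AT4G02795 rose from 0.622 and 1.02 TPM to 68.6 and 78.6 TPM, a log2 difference of 5.82 (limma adjusted p = 2.7e-08), and matches the called element AT2TE41170 at 98.69%. AT1G26558 was listed at 0 in Col-0 and was at 5.37 and 10.0 TPM in the libraries labelled cc. AT5G67488, antisense to AT5G67490, was at 27.5 and 43.8 TPM in the Col-0 libraries and listed at 0 in both libraries labelled cc (limma adjusted p = 0.031). AT2G47895 was at 1.3 and 1.71 TPM and AT3G08230 at 1.23 and 0.955 TPM in Col-0, and both were listed at 0 in the libraries labelled cc (limma adjusted p = 0.038 and 0.0034). Leaving out any one of the 4 libraries ended the calls of AT5G67488 (adjusted p 0.103 to 0.181) and AT2G47895 (0.111 to 0.185), and AT3G08230 was not called in the fit of the 4 libraries alone (0.0539).

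On the chromosomes, called features were found on all arms and were denser in the pericentromeric regions. These regions were taken as the unbroken run of 500 kb windows in which TEs made up at least 60% of listed features, without use of expression. They ran from 12.5 to 17 Mb on chromosome 1, 1 to 3 Mb on chromosome 2, 10.5 to 16.5 Mb on chromosome 3, 1.5 to 6.5 Mb on chromosome 4 and 9 to 15.5 Mb on chromosome 5. Inside them 63 of 1418 tested genes were higher (4.44%), against 108 of 21094 outside (0.512%). Of protein-coding genes alone, 34 of 1251 were higher inside (2.72%) and 80 of 19609 outside (0.408%). Of tested TEs, 72 of 265 were higher inside (27.2%) and 86 of 600 outside (14.3%). TE genes differed least, with 39 of 70 inside (55.7%) and 62 of 128 outside (48.4%). Thus 45.6% of the higher TEs and 30.6% of all tested TEs lay inside. For TEs this rested on how the regions were drawn. With windows of at least 80% TEs, which no window of chromosomes 2, 4 and 5 reached and which left 1 window of 500 kb for each chromosome, 16.7% of tested TEs inside and 18.4% outside were higher. With windows of 200 kb these were 23.2% and 16.6%, and for TE genes 50.8% and 51.1%. For genes the share was higher inside under both, 7.27% against 0.744% and 5.2% against 0.578%. Of the lower features, 3 TEs, 1 TE gene and 4 genes lay inside. On chromosome 2 a single window ended the run, and when runs were allowed to bridge 1 such window it reached from 1 to 7 Mb, a choice made after the data were seen. In the shares above, 3 to 7 Mb of chromosome 2 thus counted as outside, so these are not shares of the arms alone. With the bridged run the share of higher TEs inside was 53.8%, with 85 of 313 tested TEs called higher, against 73 of 552 outside (13.2%). Of genes, 75 of 1619 inside (4.63%) and 96 of 20893 outside (0.459%) were then higher.

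**Figure D2:**
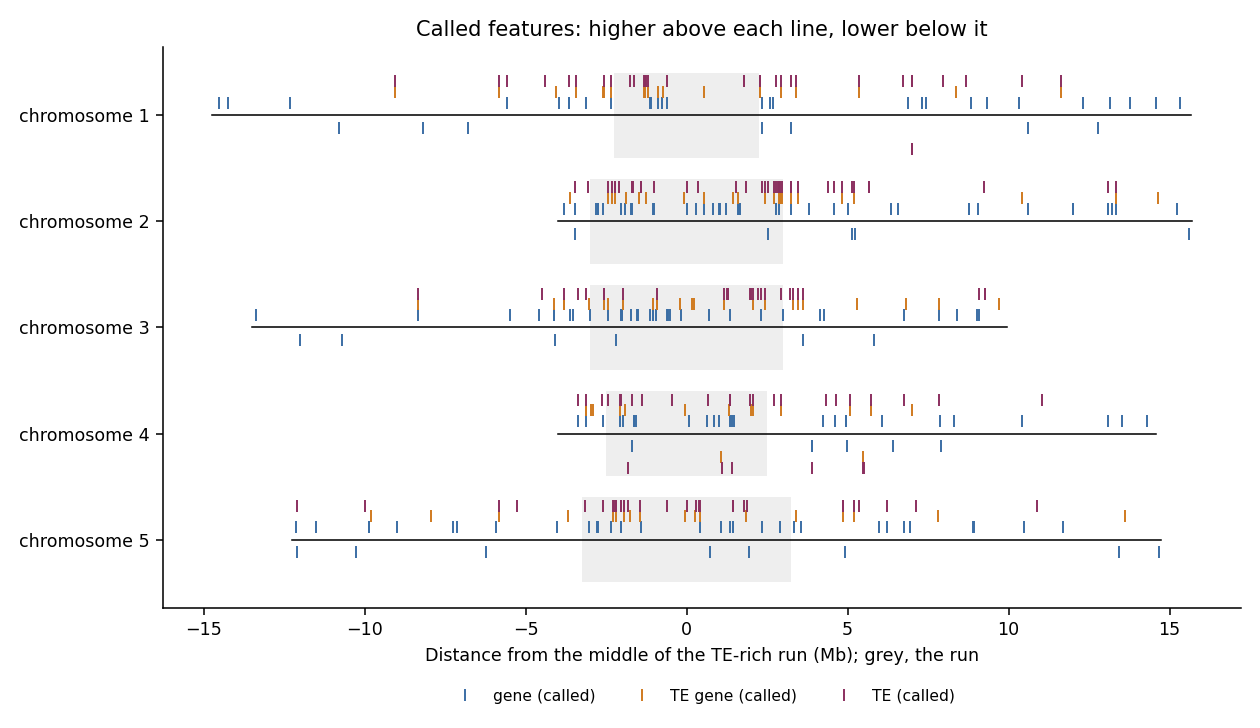
Called features along the 5 chromosomes, as distance in Mb from the middle of the TE-rich run (bridged version, grey). Each mark is 1 called feature, higher in the libraries labelled cc above the line and lower below, coloured by kind; marks crowd in and around the grey runs and continue along the arms, and the 9 lower TEs stand on chromosomes 1 and 4.

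Chromosome 2 held the most called features for its size. There 27.8% of tested TEs, 60% of tested TE genes and 1.19% of tested genes were higher, the highest share of the 5 chromosomes for each kind. The window with the most calls was at 6.5 to 7 Mb of chromosome 2, where 15 of 75 tested features (20%) were called, AT2G15555 and SQN among them. In that window RLP19, a receptor-like protein, was the only lower feature and fell from 17.7 and 10.9 TPM to 4.97 and 4.15 TPM, by 1.51 on the log2 scale (limma adjusted p = 0.0021). On chromosome 5 the window at 10 to 10.5 Mb had 12 of 53 (22.6%), all higher, among them AT5G28235 and AT5TE37180. On chromosome 1 the window at 17 to 17.5 Mb had 9 of 100, and it held AT1G45030 and AT1G45035. On chromosome 4 the window at 5 to 5.5 Mb had 9 of 52, 6 higher and 3 lower. On chromosome 3 the most in a window was 7, reached by 3 windows, among them 11 to 11.5 Mb and 12.5 to 13 Mb. At a gap of at most 5 kb, 217 of the 430 higher features had another higher feature as neighbour or overlapping them, in runs of at most 5 features, and 213 stood alone. Of the 46 lower features 14 were in runs and 32 stood alone.

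Lower features formed 3 runs of at least 3 neighbours, and a shorter one of AT4G08115, given above, and AT4TE21110. The 3 longer runs were examined with the genes around them, chosen after their values were seen. The largest had 6 features in 11.1 kb of chromosome 4 (chr4:7887440-7898499). AT4G13575 fell there from 42.3 and 34.2 TPM to 15.8 and 15.8 TPM, by 1.24 on the log2 scale (limma adjusted p = 1.9e-04). AT4G06120 fell from 14.9 and 17.1 TPM to 5.35 and 6.38 TPM, by 1.37, and AT4G06115 from 8.08 and 9.96 TPM to 2.89 and 2.43 TPM, by 1.59. AT4G13572, AT4G13577 and AT4TE34700 were lower by 1.06 or more. Of the neighbours, UNE15, a late embryogenesis abundant family gene, differed by -0.82 (limma adjusted p = 0.027), under the fold minimum, and AT4G13580 and AT4G13590 differed by 0.08 and 0.04. All called members of this run were lower in both libraries labelled cc than in either Col-0 library. The groups were apart in the same way in all 476 called features.

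The second run lay within an intron of AT1G58602, a disease resistance gene with leucine-rich repeats and an NB-ARC domain (chr1:21746354-21766048). The gene itself was at 45.2 and 37.7 TPM in the Col-0 libraries and at 23.4 and 23.5 TPM in the libraries labelled cc, a log2 difference of -0.80 (SE 0.09, limma adjusted p = 7.3e-04), which did not reach the fold minimum. In the intron that ends at the exon starting at 21753884, 2 elements were called higher. AT1TE71775, of 5195 bases, rose from 2.11 and 1.48 TPM to 12.6 and 10.8 TPM, a log2 difference of 2.42 (limma adjusted p = 3.5e-05), and AT1TE71770 rose from 3.27 and 1.58 TPM to 15.1 and 11.5 TPM, by 2.29. The element of this intron nearest to that exon, AT1TE71780, was at 2.997 and 0.973 TPM in the Col-0 libraries and at 0 and 0.611 TPM in the libraries labelled cc and was not called (log2 difference -1.61, limma adjusted p = 0.18), nor were AT1TE71760, AT1TE71765 and the TE gene AT1G58561. In the next intron, between the exon that ends at 21754088 and the one that starts at 21758509, the elements AT1TE71785, AT1TE71790 and AT1TE71805 were lower, with the values given above. None of the 5 called elements shared a base with an annotated exon of the gene, and reads of the unspliced gene and of the elements cannot be told apart.

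The third run was in the RPP4 and RPP5 cluster of disease resistance genes on chromosome 4 (chr4:9483836-9495063). It held AT4TE42860 and AT4G16870, given above, and AT4TE42880, which fell from 0.859 and 0.488 TPM to 0.0896 and 0.0345 TPM. RPP4 itself was at 24.6 and 21.0 TPM in the Col-0 libraries and at 25.7 and 22.0 TPM in the libraries labelled cc. Of the 8 genes of the cluster, all tested, none was called by limma and none had an unadjusted p under 0.05. Their median log2 difference was -0.12.

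**Figure D3:**
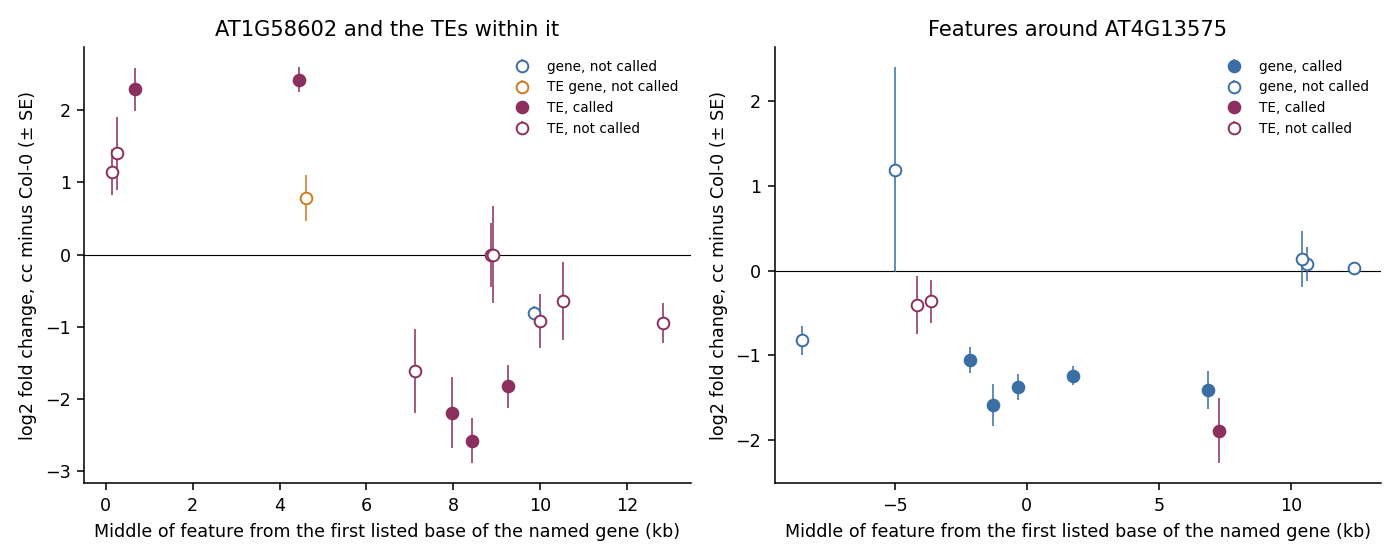
Log2 difference (libraries labelled cc minus Col-0, limma) with its standard error for features at 2 places, by distance in kb from the first listed base of AT1G58602 (left) and of AT4G13575 (right). Points are features and colours mark their kind and call; around AT1G58602 the 2 elements called higher (2.29 and 2.42) precede the 3 called lower (-2.58 for AT1TE71790), and around AT4G13575 the 5 called genes lie between -1.06 and -1.59.

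A cluster of glycine-rich protein genes on chromosome 5 (chr5:2388225-2397548) moved the other way, and was also chosen after its values were seen. These oleosin-like proteins are known from the pollen coat. GRP19 was listed at 0 in Col-0 and was at 10.3 and 9.10 TPM in the libraries labelled cc (limma adjusted p = 3.7e-06). GRP20 rose from 0.377 and 0.220 TPM to 3.38 and 2.44 TPM, a log2 difference of 2.09 (limma adjusted p = 0.0074). AT5G07570 rose from 0.447 and 0.437 TPM to 10.4 and 11.2 TPM, by 3.58, and AT5G07571 and AT5G07572 were higher at low levels. GRP14, GRP16, GRP17 and GRP18 were at or near 0 in these libraries and under the filter, so the cluster did not rise as a whole. Summed TPM of the pollen and flower marker list was 1.074 and 1.305 in Col-0 and 0.842 and 1.02 in the libraries labelled cc, with 1 of its 11 genes over the filter.

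Besides CMT2, no gene in the lists of silencing machinery was called. Of a list of 11 with the DNA methyltransferase genes and DDM1, 7 were tested, CMT2 alone was called, 5 had an unadjusted p under 0.05, and the median log2 difference was 0.28. MET2A, a homolog of MET1, was at 0.565 and 0.481 TPM in the Col-0 libraries and at 0.996 and 1.47 TPM in the libraries labelled cc (log2 difference 0.75, limma adjusted p = 0.091). MET1, which maintains CG methylation, differed by 0.28 (limma adjusted p = 0.12), and DDM1, a chromatin remodeler that gives methyltransferases access to heterochromatin, by 0.55 (limma adjusted p = 0.15). In 5 further lists, medians were -0.03 for DNA demethylases, -0.04 for H3K9 methylation, 0.09 for RNA-directed DNA methylation, -0.07 for post-transcriptional silencing and 0.15 for heterochromatin factors. Of their 55 genes 52 were tested and none was called by limma, beside 0.76% of all tested genes higher and 0.155% lower. Lists of this size would hold few calls at those shares. Of the 52, 3 had an adjusted p under 0.05 and 7 an unadjusted p under 0.05, the latter beside 17.95% of all features. IBM1, the histone demethylase that keeps H3K9 methylation out of genes and whose full-length transcript is known to need methylation in a long intron, was at 10.1 and 10.8 TPM in the Col-0 libraries and at 6.50 and 5.78 TPM in the libraries labelled cc. Its log2 difference was -0.72 (limma adjusted p = 0.0060), under the fold minimum. The heterochromatic histone variants HTA6 and HTA7 differed by 0.49 (limma adjusted p = 0.0053) and 0.27 (limma adjusted p = 0.036).

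Of 9 genes known as controlled by methylation, 4 were tested and QQS was called, beside 0.76% of all tested genes higher. The median log2 difference of the 4 was 3.40, beside 0.03 for all features. MRD1 was at 0.519 and 0.138 TPM in the Col-0 libraries and at 24.0 and 20.1 TPM in the libraries labelled cc, and MRU1 at 14.4 and 10.6 TPM and 50.5 and 51.6 TPM. Their groups lay far apart, but neither was called (limma adjusted p = 0.22 and 0.32) in the fit that shares its spread with the transgenic lines. In a fit of the 4 Col-0 and cc libraries alone the adjusted p values were 0.0141 and 0.0281. SDC was listed at 0 except for 0.331 TPM in cc replicate 2, and FWA at 0 in all 4 libraries. None of the 10 imprinted endosperm genes and none of the 8 ONSEN copies, a heat-activated copia element, was over the filter.

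No gene was called in the lists of stress and developmental programmes. In 8 lists, for rapid stress responses, cold output, salicylic acid defence, heat shock, the circadian clock, the DNA damage response, flowering time and hypoxia, 121 of 130 genes were tested. None was called by limma, beside 0.76% of all tested genes higher and 0.155% lower. At those shares lists of this size would hold few calls, so the lack of calls does not set these programmes apart. Of the 121, 1 had an adjusted p under 0.05 and 12 an unadjusted p under 0.05 (all features, 17.95%). The list medians were -0.01, -0.05, 0.35, 0.13, -0.07, 0.36, -0.08 and 0.14 in that order, beside 0.03 for all features. The gene with the adjusted p was TSO2, a small subunit of ribonucleotide reductase, at 43.7 and 44.2 TPM in the Col-0 libraries and at 63.9 and 58.0 TPM in the libraries labelled cc, a log2 difference of 0.47 (limma adjusted p = 0.018). Of 44 marker genes of leaf, root, seed, and pollen and flower, 30 were tested, none was called by limma and 7 had an unadjusted p under 0.05 (all features, 17.95%). Their medians were -0.00, 0.04, -0.02 and -0.50. Root markers summed to 214 and 197 TPM in the Col-0 libraries and 249 and 234 TPM in the libraries labelled cc. Without IRT1, which the iron list also holds, they summed to 189.9 and 183 TPM and 175 and 186 TPM. Seed markers summed to 6.44 and 5.89 TPM and 5.18 and 5.41 TPM.

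Genes of the iron deficiency response were examined as a list of 18 after 3 of them were seen among the called genes, so that its count is no independent evidence. All 18 were tested, 3 were higher, none was lower, and the median was 0.39. Of all tested features 1.82% were higher, with a median of 0.03. The largest difference in the list, 2.35 in CYP82C4, was not called (limma adjusted p = 0.059). That gene was at 6.41 and 1.54 TPM in the Col-0 libraries and at 26.4 and 13.2 TPM in the libraries labelled cc. FRO2, the root ferric chelate reductase, rose from 5.54 and 4.11 TPM to 27.7 and 13.5 TPM, a log2 difference of 1.92 (limma adjusted p = 0.0064). NAS2, a nicotianamine synthase, rose from 3.42 and 3.19 TPM to 13.2 and 8.85 TPM, by 1.57 (limma adjusted p = 0.018). BHLH100, a transcription factor of this response, rose from 0.727 and 0.597 TPM to 3.59 and 1.99 TPM, by 1.46 (limma adjusted p = 0.023). IRT1, the root iron transporter, was at 24.5 and 13.9 TPM in the Col-0 libraries and at 73.4 and 47.4 TPM in the libraries labelled cc and was not called (limma adjusted p = 0.071). In FRO2, NAS2, BHLH100 and IRT1, as in CYP82C4, cc replicate 1 stood above cc replicate 2, and Col-0 replicate 1 above Col-0 replicate 2.

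For 264 of the 430 higher features, all 8 libraries of the transgenic lines were below 50% of the lower of the libraries labelled cc, and 73 features were listed at 0 in all 8. For 33 features, 23 genes, 3 TE genes and 7 TEs, all 8 line libraries were at or above 50% of it, and AT1G64795, AT3G61030, AT1TE77165 and AT5TE25310 were among these. These counts describe levels of features chosen as high in the libraries labelled cc, with no test and no share over all tested features. Of the 430, 66 genes, 60 TE genes and 88 TEs reached 0.5 TPM in no library except those labelled cc. Low levels in the lines were thus partly set by the choice of features. The lines are labelled as in the cc background, but their CMT3 level lay below that of the libraries labelled cc.

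The libraries compared had depths, from the ratio of the deposited coverage and FPKM, at which 1 TPM on a transcript of 1 kb stood for 593 to 792 aligned bases. Levels under 1 TPM thus rest on few reads. The correlation of log2 values between replicates of a group was 0.9801 to 0.9822 over nuclear features. Over all 6 groups of the series, 138 nuclear features, 128 of them tested, were at 0 in 1 library and at 5 TPM or more in the other of the same group.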

How the data were processed

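RNA was measured in whole seedlings with TruSeq libraries of bead-purified mRNA. Per the study's methods, fastp trimming preceded alignment by the authors with HISAT2 2.0.0 (a beta release) against TAIR10 and transcript assembly with StringTie, and DESeq2 was used by the authors for their own quantification and differential expression. The deposited tables give coverage, FPKM and TPM per feature, in the columns of StringTie's gene abundance output. TPM, which the authors scaled to 1000000 per library, was the unit analysed. Deposited FPKM served as an alternative, and deposited coverage only for the estimate of depth. Annotation release, strand setting and treatment of reads with several alignments are not given in the sources used here. TPM is relative, so a rise of some transcripts lowers the rest slightly, and without read counts no count model was run.

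For 4 identifiers listed more than once, TPM values were summed. The 296 organelle features entered the fit but not the counts. Of the identifiers, 37572 matched RefSeq locus tags of TAIR10.1, 37553 with the same start and end, and symbols and descriptions were taken from there. Log2(TPM + 0.5) was fitted with limma 3.58.1 (R 4.3.3) with 1 coefficient for each of 6 groups over 12 libraries and a trended variance, for the 23614 features that reached 0.5 TPM in 2 or more libraries. Fold changes are on that scale and understate the change of low features. P values were adjusted over all 23614 by Benjamini-Hochberg, and calls needed an adjusted p under 0.05 and a log2 change of at least 1. The fit was tested on simulated data. Copies were compared with BLAST+ 2.17.0, and permutation tests used scipy 1.17.1.

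Named features were CMT2, CMT3 and the copia elements with primers. Added to them were the features with the largest differences among calls without overlap between groups. These were 12 higher and 8 lower protein-coding genes, 6 higher and up to 4 lower TE genes, 8 higher TEs of at least 100 bases that overlap no other feature, up to 5 lower TEs, and 3 higher and 3 lower noncoding genes. Called members of gene lists (at most 4 each) and the window with most calls per chromosome were also named. Members, lists and tests were chosen with earlier results of these data known, and lists are described by counts and medians without a set test. Alternatives were 2 other pseudocounts, other filters on low values, FPKM, quantile normalization, a fit of 4 libraries, a replicate block, features without overlap, summed TPM of TEs with their TE genes, other windows, features that switch between replicates left out, and each library left out.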

Additional observations from a re-analysis of the deposited data

How the results depend on the processing

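The excess of higher over lower calls held under each alternative, while the counts moved with filter, fit and treatment of overlaps. Features near 0 in Col-0 had little or no room to fall in any of them. Genes called higher (171) were 83 with a mean of at least 1 TPM, 103 in a fit of the 4 libraries alone, 90 among features without overlap and 536 by adjusted p alone, and 130 to 146 with 1 library left out. Genes lower (35) were 54 after quantile normalization, 12 in the fit of 4 libraries, 18 without overlap and 234 by adjusted p alone, and 22 (without Col-0 replicate 1) to 55 (without cc replicate 2). TE genes higher (101) were 28 with a mean of at least 1 TPM, 59 in the fit of 4 libraries and 215 with summed TPM, and 77 to 94 with 1 library left out. TE genes lower (2) were 1 with a pseudocount of 1 and 0 in the limma fit of 4 libraries, where 2 had an unadjusted p under 0.05, and 2 to 3 with 1 library left out. TEs higher (158) were 60 with a mean of at least 1 TPM, 97 in the fit of 4 libraries, 31 without overlap and 284 with summed TPM, and 115 to 147 with 1 library left out. TEs lower (9) were 5 with a mean of at least 1 TPM, 14 after quantile normalization, 1 in the fit of 4 libraries and 1 without overlap, and 4 (without Col-0 replicate 1) to 7 (without cc replicate 2), with 5 without either of the other libraries. The 8 called members of the gene lists were 1 without overlap, where no TE gene was tested. The pericentromeric share of higher TEs (45.6%) was 5.06% with 80% windows, 32.3% with windows of 200 kb and 53.8% with bridged runs, chosen after the data were seen, beside 30.6%, 5.55%, 25.4% and 36.2% of tested TEs, so the TE excess turned with 80% windows. Beyond fewer features or libraries by construction, the cause of these changes was not tested. A fit that leaves out a library assumes that the lone one left varies like the other groups.

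Deviations of same-numbered libraries correlated weakly, at 0.1 for Col-0 and cc and at -0.068 to 0.11 over 15 pairs of groups. The value for Col-0 and cc lay near the top of that range, so this does not show that replicate numbers carry no shared effect. With a replicate block the calls were 170 higher and 38 lower genes, 97 and 2 TE genes and 152 and 8 TEs. Of 272 features called in the fit of 4 libraries, 249 were among the 476. For 51 named features, 731 of 775 values under alternatives kept their direction and call, 43 lost the call, 1 gained it (AT4TE50435, 6.14 with summed TPM) and none reversed.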

Other observations

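Further called genes, chosen after their values were seen, included a pair of disease resistance genes on chromosome 5. ADR1-L3 (AT5G47280), of the family of helper immune receptors, was listed at 0 in both Col-0 libraries and was at 4.37 and 4.78 TPM in the libraries labelled cc (limma adjusted p = 1.3e-05). AT5G47260, close to it, was listed at 0 and then at 2.29 and 3.10 TPM (limma adjusted p = 1.4e-04). LBD1, of the plant-specific LOB domain family of transcription factors, was listed at 0 and then at 2.75 and 2.28 TPM (limma adjusted p = 3.0e-04). APD3 and APD4, 99.05% identical to each other, were both listed at 0 in Col-0. They were at 12.7 and 10.6 TPM and at 9.01 and 8.64 TPM in the libraries labelled cc, and reads cannot be assigned to one of them with certainty. AT2G34655, which overlaps no other feature, rose from 0.732 and 0.533 TPM to 29.34 and 32.03 TPM, a log2 difference of 4.79 (limma adjusted p = 9.0e-07).

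Of transcription factors that were lower, BBX18, a B-box protein known from light signalling, fell from 49.9 and 46.0 TPM to 23.0 and 22.2 TPM, by 1.07 on the log2 scale (limma adjusted p = 1.9e-04). NF-YA10, a subunit of the CCAAT-binding factor NF-Y, fell from 7.21 and 5.81 TPM to 2.23 and 2.72 TPM, by 1.23 (limma adjusted p = 0.0049). In both genes, as in all 476 called features, the Col-0 and cc libraries did not overlap.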
